A study of Drosophila melanogaster with 3 samples.

Results

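Germ cells of the fruit fly Drosophila melanogaster were compared with somatic cells of the same libraries, once in a female and once in a male library of sorted embryonic cells. Primordial germ cells form at the posterior pole of the embryo, inherit maternal RNAs and proteins of the germ plasm, migrate through the gut to the gonad and hold back transcription while the soma is patterned. They defend their genome with piRNAs, small RNAs that guide Piwi-family proteins to transposon transcripts. Somatic cells of the same embryos are by then turning into neural, mesodermal, epidermal and other tissues.

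The female and the male library each came from embryos of 5 to 8 h carrying Sxl-GFP and vas-GFP. Eggs were laid at 25 °C, or over a period correspondingly longer at 18 °C, and GFP-positive cells were sorted from dissociated embryos before capture with the 10x Genomics Chromium 3′ kit version 3. Germ cells were set against somatic cells once in each of the 2 libraries. With 1 library per sex, differences between the sexes have no replicate check, and no test was run. An unsexed library of 0 to 8 h vas-GFP embryos, made with kit version 2, was used only for comparison. All 3 libraries are labelled as germ cells. The count tables have no GFP feature, and the reporters were not checked here.

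A cell was taken as a germ cell when it had UMIs (unique molecular identifiers, counts of captured RNA molecules) for at least 3 of 7 germ cell genes, which were vas, nos, pgc, zpg, aub, CG17650 and CG14545. It was taken as somatic when it had UMIs for at most 1 of them. Among cells with at least 1000 UMIs and 500 genes, the rule found 5960 germ cells of 16962 sexed cells, and of 20952 cells in the whole series. In the female library 1268 of 10275 cells were germ cells, a share of 12.3% (exact Clopper-Pearson interval 11.7 to 13.0%), and 8714 were somatic. In the male library 4692 of 6687 cells were germ cells, a share of 70.2% (69.1 to 71.3%), and 1567 were somatic. The remaining 293 female and 428 male cells had UMIs for 2 of the genes and entered neither class. All intervals here are at 95% and cover counting error only. Because the classes were chosen by transcripts of the cells being compared, every difference below is a description, and each library shows whether a gene stood the same way in the other.

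The matrices held 109431813 UMIs in the female and 47345241 UMIs in the male library, and germ cells were the deeper class in both. Median depth was 18971.5 UMIs per female and 7825 UMIs per male germ cell, against 7086 and 3500 UMIs per somatic cell. The libraries shared 17 barcodes, of which 16 passed the filter. With every cell thinned to 2000 UMIs, germ cells had a median of 1021 genes in the female and 1027 genes in the male library, and somatic cells had 813 and 819.5 genes. Thinning left out 1 female and 5 male germ cells and 152 and 219 somatic cells for lack of depth, and the unthinned medians were 3807 and 2451 against 1788 and 1167 genes. The 100 most abundant genes of each class took 39.0% and 38.5% of germ cell UMIs and 47.3% and 47.4% of somatic UMIs. Germ cells as chosen here thus had more genes at equal depth, and a smaller share of summed UMIs in the top 100, in both libraries. The rule itself asks for detected genes, which favours cells with more genes. From 3 to 7 of the defining genes, the thinned median rose from 957.5 to 1053.5 genes in female cells. In male cells it rose from 1014 to 1064 genes. How much the rule added to the difference was not tested.

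The 7 genes that chose the cells are given as a description. Each was also measured in classes drawn with the other genes of the list, so that its own UMIs did not choose the cells. The innexin zpg, a gap junction protein of germ cells, stood at 321 CPM (the UMIs of a gene scaled to a class total of 1e+06) in female germ cells and 2.00 CPM in female somatic cells, and at 394 and 90.4 CPM in the male library. The translational repressor nos stood at 126 against 0.497 CPM in the female and 154 against 20.9 CPM in the male library. For pgc, which holds back transcription in pole cells, the values were 176 and 1.32 CPM in the female and 210.5 and 39.2 CPM in the male library. The RNA helicase gene vas stood at 80.0 against 15.5 CPM in the female and 79.9 against 21.8 CPM in the male library. In the annotation vas overlaps solo on the same strand, so reads of the pair cannot be told apart. All 7 genes were higher in germ cells in both libraries when left out of the rule. The male somatic levels depend strongly on the classes. With all 7 genes in the rule and somatic cells also outside clusters of germ cells, they were 3.13 CPM for zpg and 0.695 CPM for nos. For pgc and vas they were 2.43 and 13.4 CPM. There, however, the genes themselves helped to choose the cells.

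The step from soma to germ fell at different counts of genes in the 2 libraries. The 15 leading germ cell genes named below, none of them in the rule, summed to 14.6 CPM in female cells with none of the 7 genes, 16.9 CPM with 1, 45.6 CPM with 2, 579 CPM with 3 and 1769 CPM with 4. In male cells the same sums were 30.3, 373, 1447, 1876 and 2139 CPM. These 15 genes were picked for their ratios between the same classes. Low sums with none or 1 of the genes and high sums with 3 or more are therefore partly fixed by that choice. Cells with 2 genes were in neither class and did not enter it. Female cells just outside the rule, with 2 genes, thus resembled somatic cells, whereas male cells with 2 genes were close to germ cells. The 82 somatic marker genes summed to 12172 CPM in female cells with 2 genes and 7445 CPM with 3, and to 2112 and 1652 CPM in male cells. In clusters of the whole library, 7.51% of female and 92.1% of male cells with 2 genes lay in clusters of germ cells, and so did 0.712% of female and 37.3% of male cells with 1 gene.

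**Figure D1:**
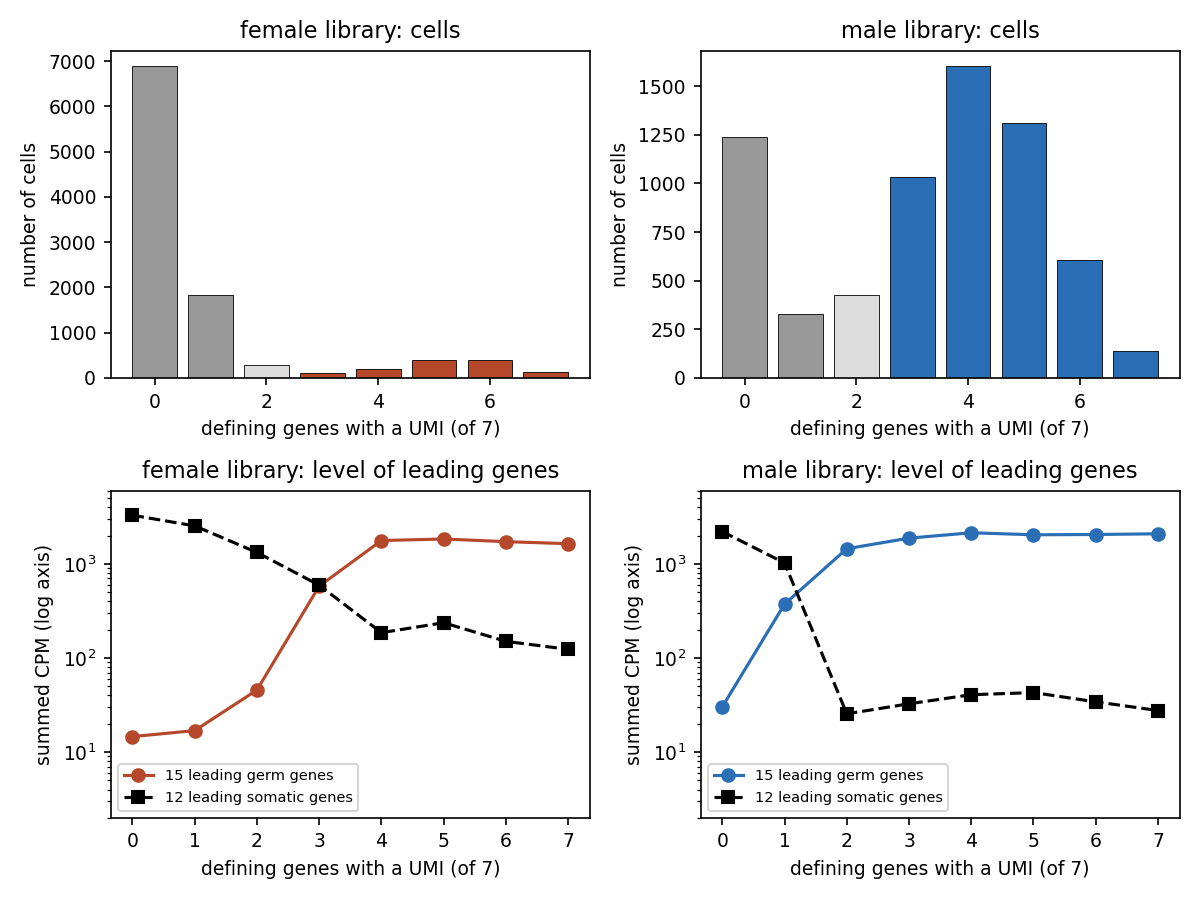
Cells of the female (left) and male (right) library by how many of the 7 defining genes had a UMI: number of cells (top; grey bars are somatic, pale bars neither class, coloured bars germ cells) and summed CPM of the 15 leading germ cell and 12 leading somatic genes on a log axis (bottom). The germ cell genes reach 1769 CPM at 4 genes in the female library and already 1447 CPM at 2 genes in the male library. Both sets of leading genes were picked for their ratios between the germ and somatic classes shown.

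The male somatic class held 146 cells (9.32%) from clusters of germ cells, and the female somatic class 25 cells (0.287%). For the 15 leading germ cell genes, the level in somatic cells was a median of 0.602% of that in germ cells in the female library (0.200 to 2.83%) and 5.48% in the male library (4.60 to 7.11%). When a somatic cell also had to lie outside germ cell clusters and a germ cell inside one, the medians were 0.523% and 0.659%. In the other direction, the 12 leading somatic genes stood in germ cells at a median of 5.63% of their somatic level for female and 2.56% for male cells, and at 2.52% and 0.851% with the clusters added to the rule. Both sets were picked for the largest ratios between these classes, so such low levels are partly fixed by that choice. They do not measure how pure the classes are. The 82 somatic markers together stood in germ cells at 23.7% of their somatic level for female and 18.4% for male cells. Of the 82, only the haemocyte marker NimC1 had no UMI in germ cells of either library.

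Across the genome, 5328 genes passed the size filter of at least 20 CPM in 1 class and at least 50 UMIs over both classes, in each library. A gene could pass through 1 class alone, and its ratio was then partly fixed by the filter. Of these, 1437 were at least 2-fold higher in germ cells in both libraries (27% of genes tested) and 642 were at least 2-fold higher in somatic cells in both (12%). Ratios use CPM plus 1 and are given as the log2 of germ cells over somatic cells. No gene was 2-fold apart in opposite directions in the 2 libraries, and 4989 genes (93.6%) had the same sign. Over the 5328 genes the ratios of the libraries had a Pearson correlation of 0.94 and a Spearman correlation of 0.97, a description across genes, which are not independent. Of 566 genes at least 4-fold higher in germ cells in the female library, 563 were at least 2-fold higher in the male library, and all 359 genes 4-fold higher in the male library were 2-fold higher in the female one. Of all genes tested, 29.2% were 2-fold germ-higher in the male and 32.5% in the female library. The same rule and filter were used in both libraries, which adds to this likeness by an amount not tested. In the unsexed library, 1126 of the 1437 germ-higher genes (78.4%) and 589 of the 642 soma-higher genes (91.7%) were also 2-fold apart the same way, against 27.7% and 15.1% of all genes tested.

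The balance of the calls depends on the scaling. The median log2 ratio of all tested genes was 0.53 for female and 0.46 for male cells, above 0. Under TMM scaling, which assumes that most genes do not change, these medians became 0.10 and 0.23, with 897 germ-higher and 802 soma-higher genes. Germ-higher genes made up 69.1% of all calls with CPM and 52.8% with TMM. Differences near the median of all genes are read below against that median.

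**Figure D2:**
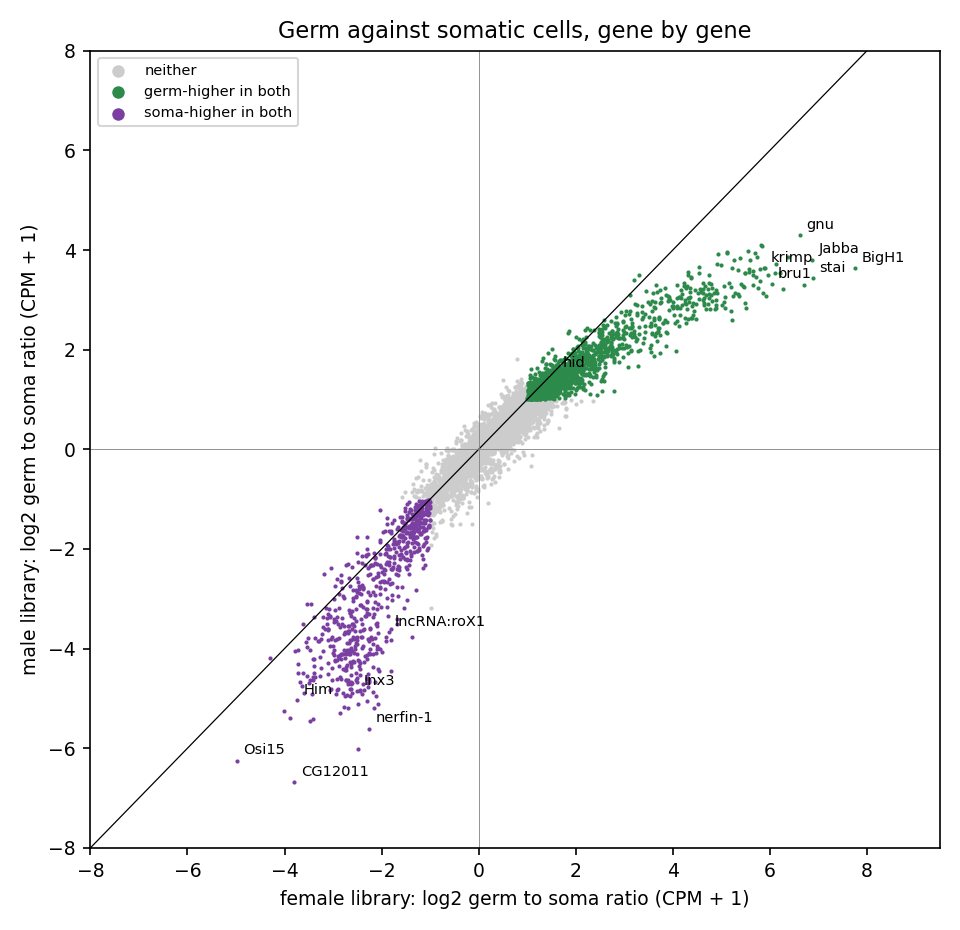
Log2 ratio of germ cells to somatic cells (CPM plus 1) for each of the 5328 tested genes in the female (x axis) and male (y axis) library, with 1437 genes higher in germ cells in both (green) and 642 higher in somatic cells in both (purple). The line marks equal ratios: germ-higher genes lie mostly below it, with smaller ratios in the male library, and many soma-higher genes also lie below it, with larger ratios there.

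The 15 genes that led the germ cell side included many known maternal and germline regulators. gnu (FBgn0001120, chr3L:14802380-14803360 in the BDGP6.54 annotation), a subunit of the Pan gu kinase complex that drives the early embryonic cell cycles, stood at 168 CPM in female germ cells and 0.715 CPM in female somatic cells, and at 228 and 10.6 CPM in the male library. As a plain ratio of CPM with nothing added, the difference was 235.6-fold (181 to 312) for female cells, from 4354 and 56 UMIs, and 21.5-fold (16.9 to 27.7) for male cells. On the log2 scale of CPM plus 1 it was 6.63 and 4.30. With every cell thinned to 2000 UMIs, 26.3% of female germ cells and 0.187% of female somatic cells had a gnu UMI, and 34.5% and 1.48% of male cells. The second regulatory subunit of that complex, plu, stood at 67.8 against 0.434 CPM in the female and 76.1 against 4.53 CPM in the male library.

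Regulators of maternal RNA were in the same group. osk, which organises the germ plasm, stood at 46.0 against 0.358 CPM in the female and 53.0 against 2.50 CPM in the male library. orb, a CPEB-family translational regulator, stood at 45.8 against 0.524 CPM and 47.6 against 2.19 CPM. wisp, the cytoplasmic poly(A) polymerase of the late oocyte and egg, stood at 195 against 5.52 CPM and 189 against 13.4 CPM. The counts of osk are uncertain because it overlaps lncRNA:osk on the same strand.

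A further set binds or modifies chromatin or stores its proteins. dhd (chrX:5312171-5313125), the thioredoxin needed to unpack sperm chromatin, stood at 163 against 0.983 CPM in the female and 174.5 against 11.1 CPM in the male library. Jabba, which anchors histones to lipid droplets of the early embryo, stood at 372 against 2.18 CPM and 455 against 31.6 CPM, and a UMI of it was found in 47.1% of female and 56.6% of male germ cells at 2000 UMIs per cell, against 0.444% and 4.15% of somatic cells. The embryonic linker histone BigH1 (chr3R:14663450-14664822) was not among the 15, yet stood at 521 against 1.40 CPM and 674 against 53.2 CPM. The cyclin CycJ and the genes CG9926, CG1894, CG15262 and CG14931 completed the 15 together with shu, del and qin of the piRNA pathway. The smallest log2 ratio among the 15 in the male library was 3.72, for wisp.

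The piRNA pathway had the highest median ratio of the lists in both libraries, though the lists were chosen with earlier results known. Members such as piwi, krimp, qin and armi passed the size filter only through germ cells. Their high ratios are therefore partly fixed by that filter. Of 29 tested genes, 24 were germ-higher in both libraries (82.8%, against 27% of all genes tested) and none was soma-higher (against 12%). All 29 ratios were above 0 in each library, a sign shared by most of all genes tested. The median log2 ratio was 3.23 for female and 2.81 for male cells, against 0.53 and 0.46 for all genes. The Argonaute gene piwi stood at 41.0 CPM in female germ cells and 0.575 CPM in female somatic cells, and at 47.3 and 3.75 CPM in the male library. AGO3, another gene of the Piwi family, stood at 85.2 against 1.95 CPM and 109 against 14.7 CPM. The nuage proteins that carry the ping-pong cycle of piRNA amplification were similar, with krimp at 92.4 against 0.587 CPM and 113 against 8.13 CPM, and qin at 48.6 against 0.434 CPM and 60.6 against 2.97 CPM. The helicase armi and the nuclease zuc, which act on piRNA precursors at mitochondria, stood at 68.3 and 138 CPM in female germ cells against 0.549 and 6.71 CPM in somatic cells.

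Genes for transcription of piRNA clusters showed a graded difference. del, a member of the Rhino complex, stood at 92.4 against 0.626 CPM in the female and 129.9 against 6.72 CPM in the male library. Its partners rhi and cuff stood at 77.3 and 25.3 CPM in female germ cells and at 8.03 and 4.15 CPM in female somatic cells. The co-transcriptional silencing factors Panx and nxf2 were among the 5 genes that were not called, with log2 ratios of 0.55 and 0.54 in the female and 0.61 and 0.38 in the male library. The others were tud, vls and Tdrd3. papi, BoYb and moon did not pass the size filter, and trim was not matched to a symbol in the count tables and was not analysed here. Several members overlap genes on the opposite strand, del with pths and qin with CG14304 and CG31224 among them. Reads of such pairs can be told apart only if the counting used strand, which is not stated in the sources used here.

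**Figure D3:**
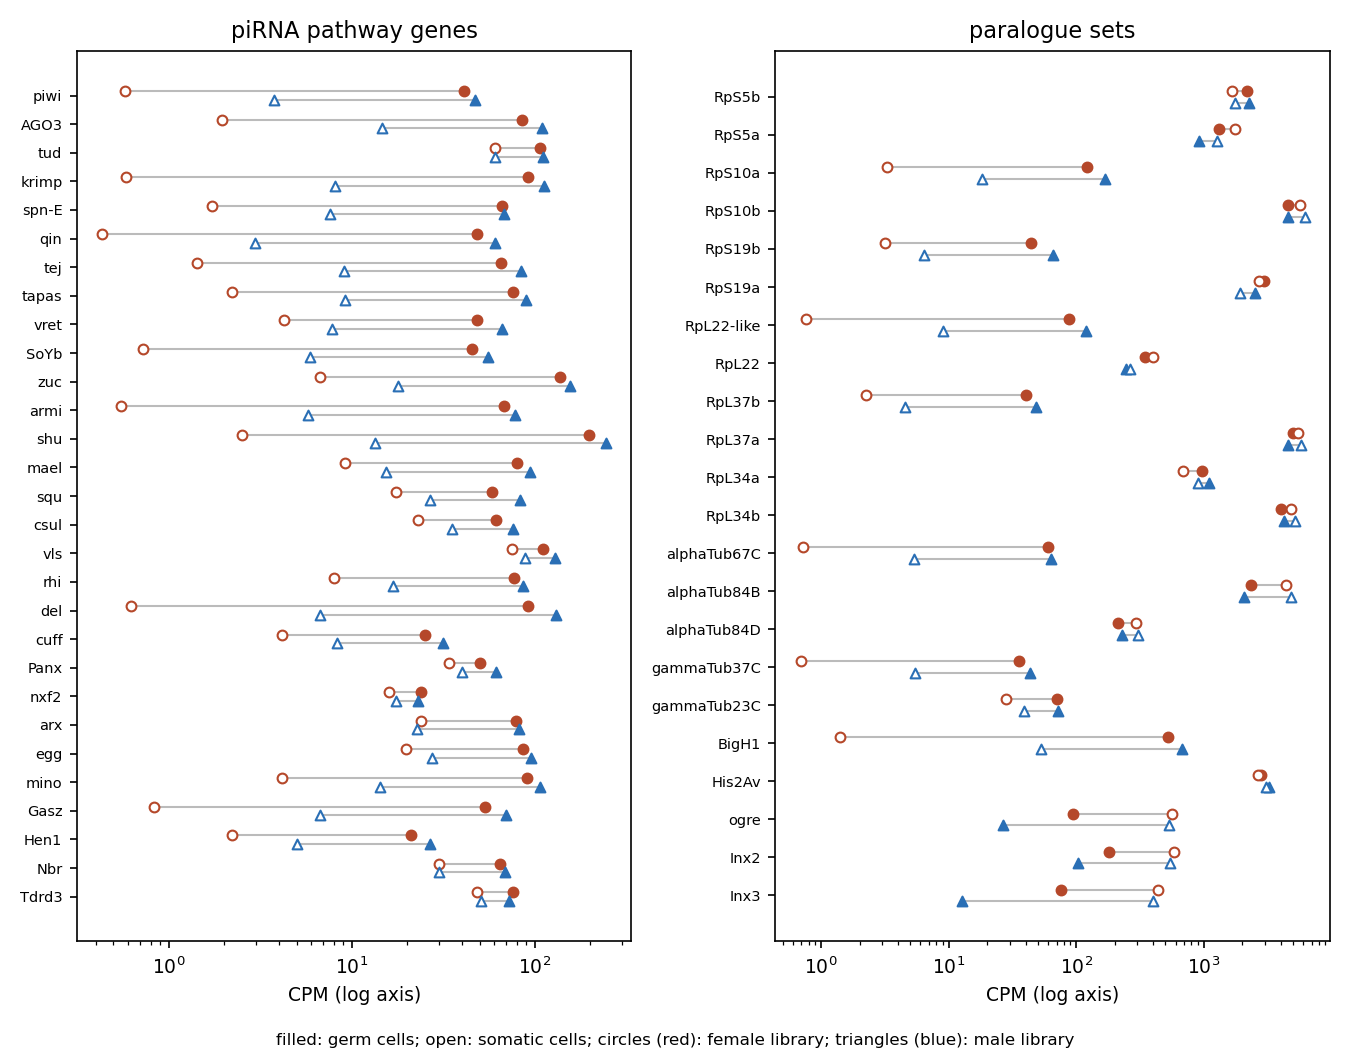
CPM on a log axis in germ cells (filled) and somatic cells (open) of the female (red circles) and male (blue triangles) library, for the 29 tested piRNA pathway genes (left) and for sets of related genes (right). In the right panel RpL22-like, RpS10a, alphaTub67C and gammaTub37C are far apart between classes, whereas RpL22, RpS10b and alphaTub84D lie close together; ogre, Inx2 and Inx3 lie the other way round.

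The list of germ plasm and germline regulators was split. It shares tud, mael, krimp, spn-E, vls and csul with the piRNA list, so the counts of these lists overlap. Of 24 tested, 14 were germ-higher (58.3%, against 27% of all genes tested) and none was soma-higher (against 12%). The translational repressor bru1 stood at 431 against 5.57 CPM in the female and 455 against 44.6 CPM in the male library. The germline transcription factor ovo stood at 423 against 90.1 CPM and 379 against 101 CPM, so its somatic level was not near 0. bgcn and stet, which act in germline stem cell differentiation in the adult, stood at 26.2 and 39.7 CPM in female germ cells and at 0.587 and 1.06 CPM in somatic cells. The male germline factor Phf7 stood at 40.4 against 7.04 CPM in the female and 27.8 against 13.8 CPM in the male library, with a male log2 ratio of 0.96, below the limit. gcl and sra had log2 ratios of 0.05 in the female library and -0.11 and -0.37 in the male.

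Several protein families showed the difference in 1 copy and not in another. The ribosomal protein gene RpL22-like stood at 87.9 CPM in female germ cells and 0.766 CPM in female somatic cells, and at 119 and 9.07 CPM in the male library, whereas RpL22 stood at 348 against 397 CPM and 245 against 262 CPM. RpS10a stood at 121 against 3.27 CPM and 168 against 18.1 CPM, and its abundant relative RpS10b at 4589 against 5670 CPM and 4570 against 6168 CPM. RpS19b and RpL37b were also germ-higher, and these 4 were the only called copies among 10 tested second copies (40%). RpL22-like and RpS10a passed the size filter only through germ cells, so their high ratios are partly fixed by that filter. With clusters added to the rule, somatic levels of RpS19b and RpL37b were also low. They were 3.15 and 2.21 CPM in the female and 3.65 and 1.91 CPM in the male library. Of all genes tested, 27% were germ-higher and 12% soma-higher. None of the 13 main copies was called in either direction, and their median log2 ratio was -0.17 for female and -0.25 for male cells. RpS5b, by contrast, differed by a log2 ratio of only 0.40 and 0.37. The 85 tested cytoplasmic ribosomal protein genes took 320759 CPM of female germ cells and 368347 CPM of female somatic cells in sum. Reads of near-identical copies can be assigned to the wrong one, so single copies are uncertain.

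Among the tubulins, the maternal alpha-tubulin alphaTub67C stood at 60.5 against 0.715 CPM in the female and 63.0 against 5.32 CPM in the male library, and the maternal gamma-tubulin gammaTub37C at 35.7 against 0.690 CPM and 43.1 against 5.47 CPM. The general copies alphaTub84B and alphaTub84D had negative log2 ratios in both libraries, -0.89 and -0.46 in the female. The general gamma-tubulin gammaTub23C did not, at 70.7 against 28.1 CPM and 72.1 against 39.2 CPM, with log2 ratios of 1.30 and 0.86. The stathmin gene stai (chr2L:6100377-6124653), whose protein binds tubulin, was among the most abundant germ-higher RNAs, at 1084 against 8.22 CPM in the female and 1533 against 141 CPM in the male library. At 2000 UMIs per cell it had a UMI in 85.7% of female and 94.2% of male germ cells, and in 1.26% and 12.6% of somatic cells. Muscle-type cytoskeletal genes went the other way, with betaTub60D at 43.4 against 491 CPM and 8.25 against 227 CPM.

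Of 7 other innexins 3 were tested, ogre, Inx2 and Inx3, and all 3 were soma-higher (against 12% of all genes tested). Inx3 stood at 76.2 CPM in female germ cells and 438 CPM in female somatic cells, and at 12.8 and 397 CPM in the male library. Inx2 kept the highest level in germ cells, at 179.8 and 103 CPM against 580.0 and 547 CPM in somatic cells. Their summed germ cell level among female cells was 218 CPM with likely doublets removed, against 1576 CPM in somatic cells.

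Of 18 tested general transcription factors, 5 were germ-higher (27.8%, against 27% of all genes tested), which were Tbp, Trf2, Taf5, mia and Taf12L. Taf12L, a TAF variant known from the testis, stood at 67.2 against 0.613 CPM in the female and 71.3 against 6.25 CPM in the male library. The TATA-binding protein gene Tbp stood at 91.2 against 33.2 CPM and 99.8 against 40.8 CPM. Under TMM scaling 3 of the 18 were germ-higher and 1 was soma-higher. Nelf-E, a pausing factor, had the lowest ratio of the list, at 30.8 against 50.1 CPM and 28.1 against 57.4 CPM.

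The cell cycle list had no common direction. Of 30 tested genes, 6 were germ-higher and 4 soma-higher, against 27% and 12% of all genes, with TMM 4 and 8. The mitotic cyclin CycB stood at 992 against 239 CPM in the female and 1061 against 260.0 CPM in the male library, and its kinase Cdk1 at 396 against 168 CPM and 471 against 214 CPM. The phosphatase stg, which times embryonic mitoses in the soma, stood the other way at 104 against 376 CPM and 55.1 against 268 CPM. The cyclin-dependent kinase inhibitor dap stood at 157 against 605 CPM and 87.6 against 560 CPM, and the APC/C activator fzr at 35.4 against 112 CPM and 16.1 against 86.8 CPM. The cyclin CycA had log2 ratios of -1.05 and -0.99, opposite in sign to CycB.

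Of 22 tested RNA repression and decay factors, 5 were germ-higher and 2 soma-higher (22.7% and 9.09%, against 27% and 12% of all genes), with a median log2 ratio of 0.75 for female and 0.85 for male cells. me31B, a decapping-associated helicase, stood at 458 against 184 CPM and 531 against 224 CPM, and the cap-binding protein eIF4E1 at 739 against 267 CPM and 870.2 against 351 CPM. Imp and brat were the 2 soma-higher genes, Imp at 810 against 1768 CPM and 466 against 1440 CPM. Under TMM 3 of the 22 were germ-higher.

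Genes of 3 sets of housekeeping complexes were collected by gene symbol. Of 72 tested genes of the mitochondrial ribosome, 38 were germ-higher (52.8%, against 27% of all genes) and none was soma-higher, and the median log2 ratio was 1.21 for female and 1.02 for male cells. Of 32 proteasome genes, 17 were germ-higher (53.1%). All 32 had ratios above 0 in both libraries, a sign shared by most of all genes tested. The catalytic subunit gene Prosbeta5 stood at 636 against 110 CPM in the female and 754 against 168 CPM in the male library. Of 61 genes of oxidative phosphorylation, 13 were germ-higher (21.3%, below the share of all genes), with a median of 0.98 and 0.75. Under TMM the counts were 15 of 72, 14 of 32 and 3 of 61. Variant copies stood out in 2 of them, Rpt3R in the proteasome at 45.7 against 1.30 CPM and ATPsynepsilonL in the ATP synthase at 73.1 against 2.52 CPM in the female library, both chosen after their values were seen.

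**Figure D4:**
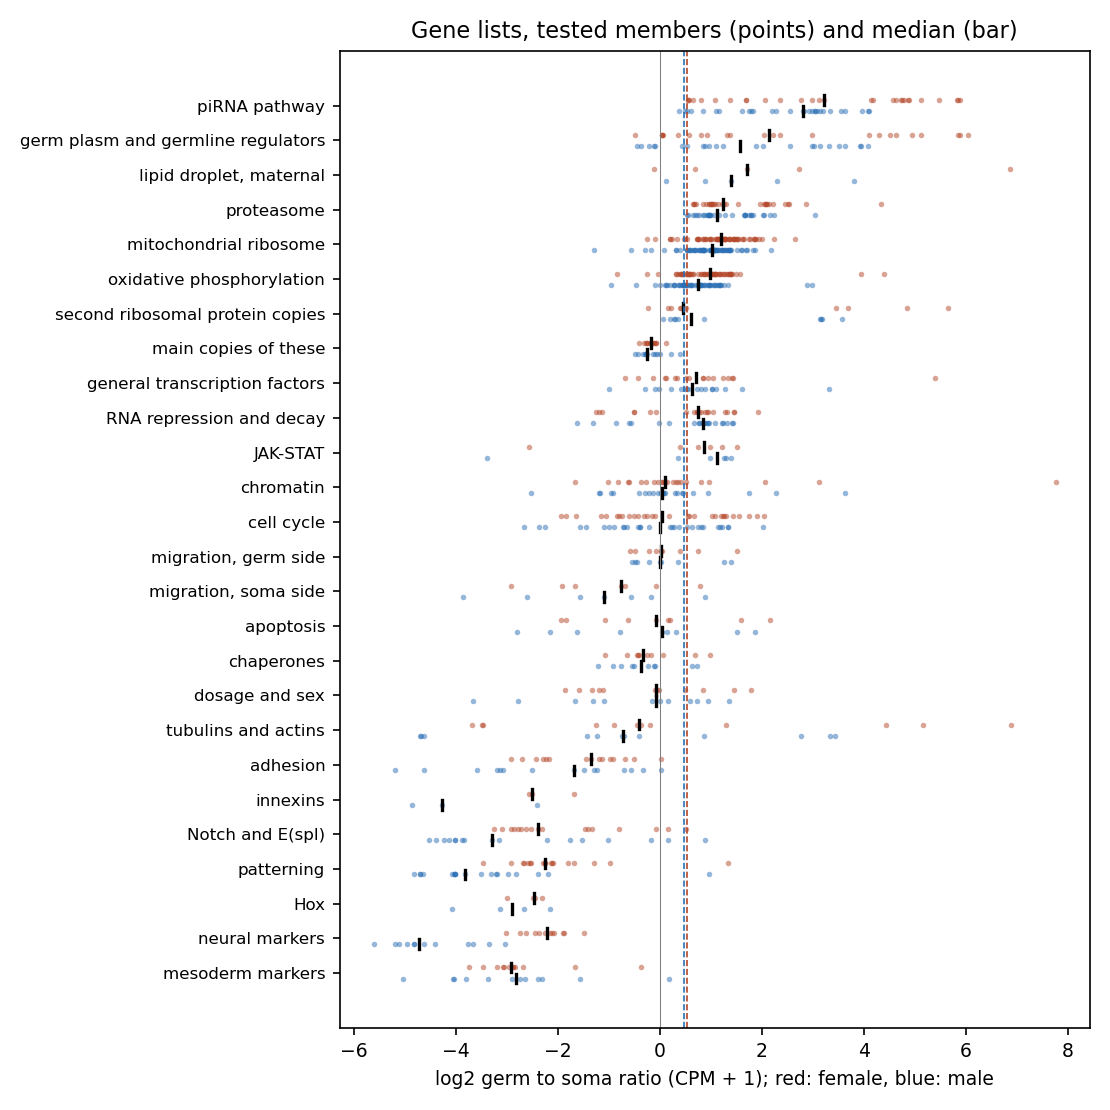
Log2 ratio of germ cells to somatic cells (CPM plus 1) for the tested members of 26 gene lists in the female (red) and male (blue) library, with list medians as black bars and dashed lines at the median of all genes (0.53 female, 0.46 male). The piRNA list has the highest medians (3.23 and 2.81), and neural markers have the lowest male median (-4.72). Some genes are in more than 1 list.

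The 12 genes that led the soma-higher side included several of muscle. Him, an inhibitor of muscle differentiation, stood at 46.4 CPM in female germ cells and 634 CPM in female somatic cells, and at 10.2 and 365 CPM in the male library. At 2000 UMIs per cell, 4.03% of female germ cells and 43.0% of female somatic cells had a Him UMI, and 1.09% and 24.5% of male cells. The muscle actin Act57B stood at 24.9 against 332 CPM and 6.30 against 185 CPM. The troponin C genes TpnC47D and TpnC73F stood at 48.5 and 50.3 CPM in female somatic cells and at 2.75 and 3.10 CPM in female germ cells. Npc2g, of the NPC2 family of lipid-binding proteins, stood at 18.3 against 254 CPM and 4.79 against 129 CPM. CG12011 stood at 99.7 against 1398 CPM in the female and 5.83 against 702 CPM in the male library. With likely doublets removed, the smaller log2 ratio of the 2 libraries went from -3.74 to -5.66 for Him, from -3.68 to -5.20 for Act57B, from -3.80 to -5.54 for CG12011 and from -3.65 to -4.78 for TpnC73F. The Osiris gene Osi15 stood at 0.348 against 41.6 CPM and 0.0260 against 77.1 CPM, and among cells with at least 5000 UMIs it was no longer higher in the somatic cells of both. CG9184, CG43332, CG9336, Neurochondrin and CG6415 completed the 12.

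Most tested genes of the patterning, Hox and Notch lists were soma-higher. Of 19 tested patterning genes, 17 were soma-higher (89.5%, against 12% of all genes tested), and cad and gt were not called. Members such as twi and hb passed the size filter only through somatic cells, so their low ratios are partly fixed by that filter. The mesoderm factor twi stood at 7.47 against 92.6 CPM in the female and 2.24 against 52.1 CPM in the male library, and the gap gene hb at 9.63 against 67.4 CPM and 2.19 against 82.2 CPM. All 4 tested Hox genes were soma-higher (against 12% of all genes), with Ubx at 41.3 against 336.5 CPM and 10.4 against 192 CPM. In the Notch list 13 of 17 were soma-higher (76.5%, against 12%), the receptor N, its ligand Dl and the 11 tested E(spl) target genes. E(spl)m7-HLH was an exception in level, with germ cell levels of 587 CPM (female) and 509 CPM (male) against somatic levels of 1549 and 1469 CPM. The nuclear factor Su(H) did not differ by the limit, with log2 ratios of -0.07 and -0.17.

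Adhesion genes included 9 soma-higher genes of 15 (60%, against 12% of all genes tested) and no germ-higher one (against 27%). The cadherin CadN stood at 13.0 against 105 CPM in the female and 2.45 against 83.5 CPM in the male library, and trn at 52.0 against 344 CPM and 7.26 against 300.2 CPM. E-cadherin, shg, had nearly equal CPM in both classes, at 204 against 201 CPM and 213 against 208 CPM. The 9 tested genes that act within migrating germ cells had a median log2 ratio of 0.020 for female and 0.0007 for male cells. Both lie below the medians of all genes, 0.53 and 0.46. The receptor Tre1 had log2 ratios of -0.49 and -0.44 and the lipid phosphatase wun2 0.05 and -0.20, also below those medians. Of these 9 genes only the Janus kinase hop was germ-higher (11.1%, against 27% of all genes), at 71.2 against 24.2 CPM and 57.0 against 20.9 CPM. In the JAK-STAT list of 6 tested genes, hop and Ptp61F were germ-higher (33.3%, near the 27% of all genes). Socs36E, a target of that pathway, was soma-higher (16.7%, near the 12% of all genes), at 37.5 against 226 CPM and 13.9 against 154.5 CPM.

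Marker genes of somatic tissues were also compared. Of the 56 tested markers, 50 were soma-higher (89.3%, against 12% of all genes tested) and none was germ-higher (against 27%). The other 26 of the 82 did not pass the size filter. A marker could pass it through somatic cells alone, as twi did. All 12 tested neural and glial markers were soma-higher. scrt stood at 78.4 against 333 CPM in the female and 9.61 against 367 CPM in the male library, and the neuronal RNA-binding protein elav at 199 against 560.4 CPM and 72.1 against 595 CPM. In sum, neural markers in germ cells reached 25.2% of their somatic level for female and 5.93% for male cells. Among female cells this was 15.2% (283 against 1853 CPM) with likely doublets removed and 13.3% (257 against 1931 CPM) with clusters added to the rule. Mesoderm markers summed to 494 against 2245 CPM in the female and 370 against 1265 CPM in the male library, with 11 of 12 soma-higher. Haemocyte markers summed to 137 against 404 CPM among female and 125 against 159 CPM among male cells, with 2 of 4 soma-higher. The 5 tested genes of the somatic gonad list, fax, zfh1, abd-A, Abd-B and eya, were also soma-higher. Of these, abd-A and Abd-B were also counted as Hox genes. With clusters added to the rule, fax alone gave 4597 of the 5200 CPM of this list in female somatic cells. All 82 markers summed to 12701 CPM there. Wnt2 and tj did not pass the size filter. tj, a defining gene of that tissue, was near 0 in all classes, at 0.0639 CPM in female somatic cells and no UMI in male somatic cells. The part of other cells' RNA in the germ cell levels of these markers was not tested.

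The X chromosome separated the 2 libraries. Over 882 tested X-linked genes the median log2 ratio of germ cells to somatic cells was 0.57 for female and 0.20 for male cells, whereas over 4401 autosomal genes it was 0.52 in both. The X minus autosome difference was 0.056 among female and -0.33 among male cells. Each of the major autosomal arms had a male median between 0.49 and 0.57. The 48 tested genes of chromosome 4 had medians of 0.070 and 0.068. Of 292 genes that were 2-fold germ-higher in the female library alone, 103 (35.3%) were X-linked, and of 117 genes germ-higher in the male library alone, 3 (2.56%) were, against 16.6% of all genes tested. Of 83 genes soma-higher in the male library alone, 42 (50.6%) were X-linked, and of 44 soma-higher in the female library alone, 5 (11.4%) were. The male difference lay between -0.26 and -0.40 under 9 of 10 alternatives. It was -0.12 where the rule itself was applied to cells thinned to 2000 UMIs.

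**Figure D5:**
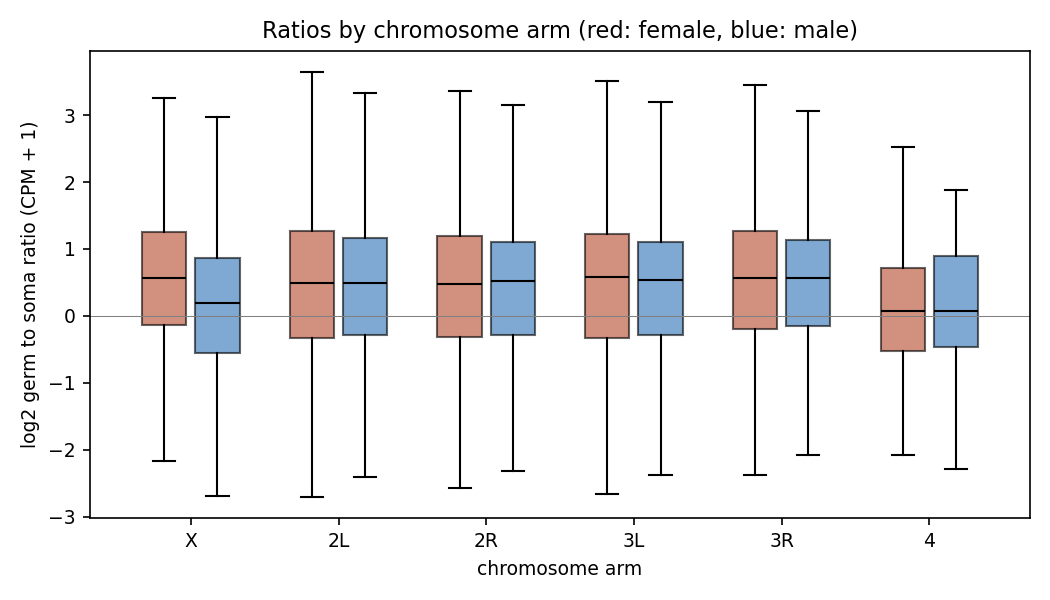
Log2 ratio of germ cells to somatic cells (CPM plus 1) by chromosome arm in the female (red) and male (blue) library; boxes span the quartiles with the median as a line, whiskers reach to the farthest gene within 1.5 box lengths. The male median of the X is 0.20, against medians of 0.49 to 0.57 on the other major arms.

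Genes of dosage compensation were measured beside this. In flies, males raise transcription of their single X in the soma through a complex built on the roX RNAs. lncRNA:roX1 stood at 282 CPM in female germ cells and 1023 CPM in female somatic cells, and at 119.8 and 1538 CPM in the male library. lncRNA:roX2 stood at 7.39 against 24.1 CPM and 9.97 against 73.9 CPM. The complex gene msl-2 was under the size filter, at 5.49 CPM in male germ cells and 21.7 CPM in male somatic cells. msl-1 and mle did not differ by the limit, with male log2 ratios of 0.01 and -0.15, and mof was at 1.78 for female and 0.95 for male cells. Whether these levels bear on the X ratio was not tested.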

How the data were processed

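The authors deposited counts of UMIs per gene and cell for each library, made with Cell Ranger on BDGP6, per the submitters' processing notes, and written by 10x software 3.1.0 for the sexed libraries, per the file headers. The annotation and strand setting are not given in the sources used here. Dense count tables of the same cells, also deposited by the authors, were an alternative. No mitochondrial UMI is counted in the sexed libraries.

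UMIs were summed over the cells of each class and scaled to CPM in Python 3.11.15 with numpy 2.4.6 and scipy 1.17.1. The 7 defining genes stayed in the class totals but were left out of the genes tested. Gene positions and overlaps came from Ensembl release 115 (BDGP6.54), and 127 of 17753 gene IDs had no entry there. UMI sums carry exact Poisson intervals and ratios exact conditional ones. Clusters were made per library with scanpy 1.11.5 and leidenalg 0.10.2 (2000 variable genes, 30 components, 15 neighbours, resolution 1), and TMM used edgeR 4.0.16. A cluster counted as germ when the summed CPM of the 7 genes reached 25% of that in the highest cluster. Doublets stayed in the main result; Scrublet marked 413 female cells but only 4 male cells (0.0598%), too few for a working caller, so an alternative removed the highest scores at 0.8% per 1000 cells. Named genes were the 15 germ-higher and 12 soma-higher genes with the largest smaller ratio of the 2 libraries, and the members of role lists. The cells, genes and lists were chosen with earlier results of these data known, and the mitochondrial ribosome, proteasome and oxidative phosphorylation lists were added later by symbol. The ratios and calls were checked on simulated counts.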

Additional observations from a re-analysis of the deposited data

How the results depend on the processing

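No gene among the 15 and 12 named changed direction under the alternatives run, apart from Osi15, whose smaller log2 ratio was 0.039 among cells with at least 5000 UMIs. Of 459 recomputed values of these genes, 454 kept the direction and at least a 2-fold difference in both libraries. The other 4 values fell below 2-fold when the germ rule was applied to cells thinned to 2000 UMIs, a setting in which few germ cells still show 3 of the 7 genes and the somatic class therefore takes up germ cells. It gave 109 germ-higher and 388 soma-higher genes, germ cell shares of 3.29% and 28.0% and a male X minus autosome difference of -0.12. With classes taken at full depth and cells then thinned, an alternative chosen after seeing the data, the counts were 1437 and 620, of which 1322 and 596 are shared with the main result.

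The germ-higher count was 880 without zpg and 864 without CG14545 in the rule, 879 at a filter of 50 CPM, 2187 with no CPM limit, 2277 at a 1.5-fold and 354 at a 4-fold limit, and 897 with TMM. The soma-higher count was 980 at 5 CPM, 414 at 50 CPM, 1040 with no CPM limit and 344 at 4-fold. With clusters added to the rule there were 1649 germ-higher genes, among them all 1437, and 706 soma-higher genes, among them 641 of the 642.

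The female share of germ cells was 11.4% without likely doublets, 11.3% at 4 of 7 genes and 15.01% among cells with at least 5000 UMIs. The male share was 54.7% at 4 of 7 genes, 86.0% at 5000 UMIs, 76.3% by clusters and 72.7% in the dense tables. The male X minus autosome difference was -0.39 at 4 against 0 of 7 genes, -0.39 with clusters added, -0.26 at 50 CPM and -0.40 in the dense tables. The cause of these shifts was not tested. The ratios are taken within each library. No paired analysis was possible because the results come from no test. Genes under 20 CPM in both classes of a library were not called, and those given, such as tj and NimC1, are levels alone.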

Other observations

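Genes of sugar and lipid metabolism stood among the 60 germ-higher genes with the largest smaller ratio, and are given here after their values were seen. The glycolytic enzyme gene Gapdh1 stood at 339.5 CPM in female germ cells and 4.71 CPM in female somatic cells, and at 427 and 33.5 CPM in the male library. The pyruvate kinase gene PyK stood at 209 against 5.31 CPM and 244 against 24.2 CPM. The fatty acid binding protein gene fabp was among the most abundant of them, at 1943 against 37.8 CPM and 2326 against 236 CPM. The peroxiredoxin gene Jafrac1 stood at 501 against 10.3 CPM and 531 against 54.6 CPM. spz, which encodes the Toll ligand, stood at 256 against 4.38 CPM and 336 against 26.3 CPM. Meiotic genes were present too, with ord, a factor of sister chromatid cohesion, at 23.4 against 0.230 CPM in the female and 34.5 against 2.03 CPM in the male library.

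Of 9 tested cell death genes, hid and Debcl were germ-higher and rpr, skl and Diap1 soma-higher (22.2% and 33.3%, against 27% and 12% of all genes tested). The cell death activator hid stood at 188 against 61.4 CPM in the female and 183 against 63.2 CPM in the male library, and at 2000 UMIs per cell it had a UMI in 19.4% and 19.9% of germ cells and in 9.25% and 8.68% of somatic cells. Its relative rpr stood at 84.0 against 179 CPM and 69.1 against 215 CPM. The inhibitor of apoptosis Diap1 stood at 137.5 against 492 CPM and 99.4 against 448 CPM.

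Of 24 tested chromatin genes, 3 were germ-higher, BigH1, rhi and egg, and 2 were soma-higher, His3.3A and HP1b (12.5% and 8.33%, against 27% and 12%). HP1b stood at 24.8 against 80.8 CPM and 10.7 against 66.1 CPM, whereas the histone gene His2Av stood at 2790 against 2640 CPM and 3248 against 3072 CPM. Genes known only by a CG number made up 1685 of the genes tested, and 568 of them (33.7%) were germ-higher and 130 (7.72%) soma-higher, against 27% and 12% of all genes tested.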
